A study of Mus musculus with 24 samples.

Results

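Natural antisense transcripts are RNAs made from the opposite strand of another gene, and the 150 most abundant of them in mouse frontal cortex are described here. The members were chosen by their counts: among genes that the deposited table types as antisense, outside chromosomes X and Y, those with the highest counts summed over all 24 libraries were taken. The table lists 33000 genes, of which 2060 are typed antisense and 2012 lie outside chromosomes X and Y, and 1122 of those 2012 had at least 1 count. Because the level selected the members, their abundance is a description and not a result. Counts just inside the limit were 226 for RP24-140D11.1, 223 for Gm15624 and 222 for Gm13601, and those just outside were 218 for Gm15972, 212 for Plxna4os1 and 211 for 9530036O11Rik.

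The RNA came from 3 wild-type (WT) and 3 homozygous GFAP-IL6 mice, 3 months old, all labelled C57BL/6. GFAP-IL6 mice carry an Il6 transgene under the Gfap promoter, so astrocytes are the cells that make the cytokine. Each mouse gave 4 libraries by 3'Pool-seq, a method that counts the polyadenylated 3' ends of transcripts, made with 2 ng or 1 ng of amplified cDNA in each of sets A and B, a split that the labels leave unexplained. The mouse was the replicate, with n = 3 per genotype, and levels are CPM, the summed counts of a mouse's 4 libraries scaled to a common library size with TMM factors.

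Antisense transcripts can start next to the promoter of their partner and run away from it, run into the partner's 3' end, or lie within its body. Some act on the neighbouring genes in cis, as the imprinted Kcnq1ot1 does on its domain, while for most no function is known. Many are brain-expressed, and several lie beside transcription factor genes that pattern the forebrain.

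The libraries held 1524165 to 12256374 counts, of which 1662 to 15099 fell on the members, and the 6 mouse sums held 7852743 to 37582644. Il6 had 30, 33 and 163 counts in the GFAP-IL6 mice against 5, 3 and 0 in the WT mice. Whether these reads came from the transgene or from the mouse's own Il6 gene was not tested. Marker levels, here and later, are CPM of a mouse's total counts without TMM factors. Summed CPM of 5 excitatory neuron markers was 604 to 699 in WT and 634 to 714 in GFAP-IL6 mice, as a check on cortex. Choroid plexus markers stood apart in WT mouse 3, where Ttr reached 3918 CPM against 76.5 to 739 in the other mice.

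Most members end at a canonical polyadenylation signal, the hexamer that directs cleavage of a transcript, which matters here because an oligo-dT method reads such ends. AATAAA or ATTAAA occurred in the last 50 bases of 95 of 149 annotated members (63.8%), against 41.8% of 1824 other antisense genes, 56.7% of 1393 detected lincRNA genes and 77.3% of 17055 detected protein-coding genes. The 30-base windows at annotated ends were taken from GENCODE vM21 transcripts on GRCm38 (mm10), 5′ to 3′ on the strand of the gene, with the hexamer in capitals. They show 6 members with the signal, whose levels or differences are described later, and then 3 without it, for which the window is the last 30 bases.
RP24-68G17.4, chr3:158067188-158067217, minus strand: tattgtataaatAATAAAatgtcaccttat
Gt(ROSA)26Sor, chr6:113067431-113067460, minus strand: ttgagggcaccaAATAAAtgtattgtgtac
Gm13205, chr4:148947493-148947522, minus strand: ctttacaaagtaAATAAAtaactgaaatgg
Toporsos, chr4:40270911-40270940, plus strand: tccaacatttgctcaacacAATAAAtgact
Snhg9, chr17:24719533-24719562, minus strand: cctcttttctcaAATAAAgtgatttaacct
Gm29508, chr12:103312370-103312399, minus strand: cttaaaagtataAATAAAtgtatgctaaac
4632427E13Rik, chr7:92734166-92734195, minus strand: ctaaggttacacagcaaaaacccttgtctc
Tmem147os, chr7:30745900-30745929, plus strand: ctatctttaatgaagcggctctcagagatg
Gm26740, chr10:22187013-22187042, minus strand: ataacatcaggctccaaagagttttctagc
Tail to tail members had the signal most often, 27 of 34 (79.4%), and members that contain their partner least often, 4 of 10. The signal is a match of letters in an annotated end and was not tested against the reads.

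Members differed from the less abundant antisense genes in where they lie relative to the other strand. Of the 149 members found in GENCODE vM21, 51 start head to head with a partner, 34 run tail to tail into one, 34 lie inside a partner, 10 contain one and 20 overlap no gene of the other strand, with Gm16586 not placed. Genes inside a partner made up 22.7% of the members and 55.2% of the other antisense genes, and head to head genes 34.0% and 18.1%. Of the 20 members without overlap, 15 started within 1000 bp of the start of a gene on the other strand. Median levels of the arrangements ran from 4.04 CPM for members that contain their partner to 5.93 CPM for those inside one. Single-exon genes were more common among the members, 31 of 149 (20.8%) against 6.03% of the other antisense genes.

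Overlap with the other strand bears on what a count means. The authors describe the libraries as keeping strand orientation, but the strand setting of the counting step is not given in the sources used here. If the counting left strand out, the reads of a gene and of its partner cannot be told apart. In 114 members (76.5%) the last 300 bases were free of exons of the other strand, against 73.7% of the other antisense genes. In 8 members (5.37%) they lay wholly under such exons, against 6.96% of the other antisense genes. The 8 include RP24-68G17.4, A630072M18Rik and 1110002L01Rik. Some exonic overlap with the other strand was found in 75.8% of the members and 54.4% of the other antisense genes. Exons of the other strand covered a median of 11.4% of a member's exonic bases, against 4.49% in the other antisense genes. The 52 ranked antisense genes whose exons lie entirely under the other strand had a median of 0 counts and at most 40. Of these 44.2% were detected and none was a member. Low counts were common elsewhere too. The 1458 genes with free last 300 bases had a median of 2 counts, with 57.1% detected and 114 members. Near-identical copies in another gene of the same sense were found for the ends of 6 members, Gm15912, 1110002L01Rik, Gm29514, AB041806, Gm26691 and G730003C15Rik, whose counts are therefore uncertain. Later annotation calls 4 members protein-coding, namely Toporsos, Fcor, Inafm2 and 1810010H24Rik, and 135 remain antisense.

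Together the members held 136766 counts, 0.121% of the 112945479 counts in the table and 83.2% of those on the ranked antisense genes. Their mean level over the 6 mice ran from 1.76 to 85.1 CPM with a median of 4.54 CPM, and 26 members were above 10 CPM. The 12 most abundant held 38.8% of the members' counts. All but 20 members were counted in each of the 24 libraries, 130 in total, and 72 had more than 3 counts in every library. For comparison, the median over 17109 detected protein-coding genes was 1267 counts, and that over the members 516.5 counts.

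Kcnq1ot1 was the most abundant, with 9836 counts. This imprinted RNA is made from the paternal allele within Kcnq1 and silences neighbouring genes such as Cdkn1c, a brake on the cell cycle. Its level was 83.7, 80.5 and 66.9 CPM in the 3 WT mice and 98.1, 93.4 and 87.9 CPM in the GFAP-IL6 mice. The groups did not overlap, but the difference of 0.26 ± 0.10 (log2, SE) was not past the threshold (edgeR, adjusted p = 0.345). Cdkn1c stood at 7.74 ± 1.66 CPM in WT (SD, n = 3) and 7.67 ± 0.42 CPM in GFAP-IL6 mice. The partner assigned to it by overlap is the small gene Gm27395, and Kcnq1 itself had 58 counts in all 24 libraries together. Airn and Nespas, the other imprinted antisense RNAs of the list that the table types as antisense, had 58 and 40 counts and were not members.

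RP24-68G17.4, an unspliced transcript of 8927 bases that runs into the 3' end of Lrrc40, followed with 64.1, 70.6 and 67.5 CPM in WT and 72.7, 61.0 and 63.7 CPM in GFAP-IL6 mice. 4632427E13Rik had 47.6, 42.2 and 34.3 CPM in WT and 46.1, 46.5 and 56.8 CPM in GFAP-IL6 mice. Gt(ROSA)26Sor, the noncoding RNA of the ROSA26 locus that is widely used to house transgenes, was the most even member, with 49.8, 45.1 and 45.0 CPM in WT and 49.995, 47.6 and 45.1 CPM in GFAP-IL6 mice. The genotypes overlapped in all 3. Its highest mouse exceeded its lowest by 1.11-fold, against a median of 1.66-fold over the members.

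Rab10os, tail to tail with Rab10, a small GTPase of vesicle traffic, had 34.7, 32.03 and 29.5 CPM in WT and 36.3, 39.8 and 37.0 CPM in GFAP-IL6 mice. Gm13205, within the zinc finger gene Casz1, had 36.8, 35.7 and 32.02 CPM in WT and 30.1, 31.1 and 30.5 CPM in GFAP-IL6 mice. Neither group pair overlapped, and neither difference passed the test, with log2 values of 0.23 ± 0.10 (SE, edgeR adjusted p = 0.533) and -0.19 ± 0.10 (SE, adjusted p = 0.6249). The rest of the 12, 4933431E20Rik, Toporsos, A830036E02Rik, 2810001G20Rik, Sp3os and 2810455O05Rik, had means over the mice of 19.6 to 32.4 CPM in either genotype. Per kilobase of gene length the order changed, and Snhg9, host of a small nucleolar RNA, led with 79.2 CPM per kb, before Gm13205 with 58.2 and Fcor with 49.3. Kcnq1ot1 stood at 1.01 CPM per kb. Because 3' counts do not grow with length, dividing by length lowers long genes, and Kcnq1ot1, with 84395 bases, stood at rank 132 per kb and rank 1 by CPM, so both scales are given where genes are compared.

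**Figure D1:**
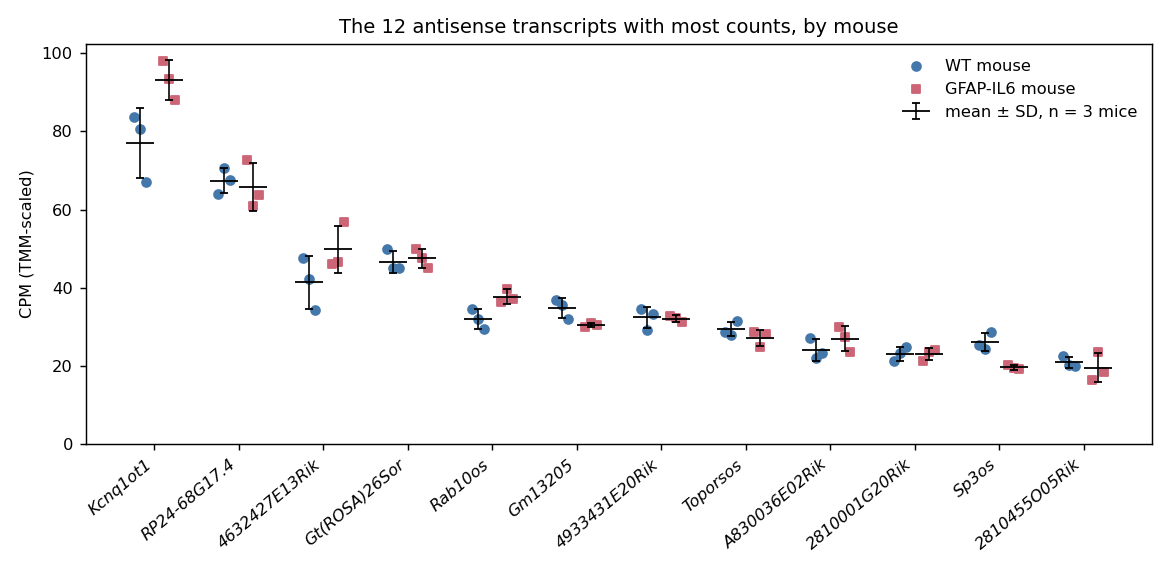
Level of the 12 antisense transcripts with most counts, in CPM after TMM scaling on a linear axis, with 1 point per mouse and bars for mean ± SD (n = 3 mice per genotype). Kcnq1ot1 sits highest, at 66.9 to 98.1 CPM, and the WT and GFAP-IL6 points of Sp3os do not overlap.

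Antisense RNAs of developmental transcription factor genes are a known group in the forebrain. Of the 20 listed, 11 are typed antisense in the table and 3 were members, none of them called between genotypes. Dlx6os1, also known as Evf2, an RNA of the Dlx5 and Dlx6 locus of GABA interneurons, had a mean of 11.2 ± 0.60 CPM in WT (SD, n = 3) and 10.7 ± 1.87 CPM in GFAP-IL6 mice. Zeb2os, inside the gene of the transcription factor Zeb2, had 6.71 ± 0.90 and 7.91 ± 0.29 CPM. Emx2os, head to head with Emx2, a homeobox gene of the developing cortex, had 6.30 ± 1.01 and 5.51 ± 0.30 CPM. Dlx1as, with 152 counts, fell outside the members, and Wt1os, Hoxb3os and Hoxb5os had 0 counts.

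Antisense to synaptic, channel and signalling genes, 10 genes of the table had a listed partner and 3 were members. Gm16536, within Bace1, the beta-secretase gene, averaged 9.14 ± 2.28 CPM in WT (SD, n = 3) and 8.50 ± 0.80 CPM in GFAP-IL6 mice. A830092H15Rik, head to head with Nlgn1, a postsynaptic adhesion gene, had 4.80 ± 0.74 and 4.94 ± 0.49 CPM. Gm26653, head to head with Grin2b, a subunit of the NMDA receptor, had 3.06 ± 0.98 and 2.17 ± 0.80 CPM. None of the 3 was called (edgeR adjusted p from 0.843 to 0.985). Of the 27 listed inflammation genes, 2 had an antisense gene in the table, Il1bos with 15 counts and RP24-122I22.6, antisense to Il6ra, with 26, and neither was a member. None of the 12 genes of the small RNA host list is typed antisense in the table, but the list leaves out the member Snhg9, which is such a host.

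Between genotypes, 1 of the 150 members was called by edgeR's quasi-likelihood test at a Benjamini-Hochberg adjusted p under 0.05, which is 0.667% of the members, against 1.8% of the 14621 genes tested (263 genes). The same member was the only DEG, defined by an absolute log2 fold change above 1 as well, against 1.23% of all genes. Log2 fold changes of the members had a median of -0.02 and an interquartile range of -0.18 to 0.18, beside a median of -0.01 over all genes tested, and 70 members were higher and 80 lower in GFAP-IL6 mice. The difference was under 0.5 in size in 134 members. At an unadjusted p under 0.05 stood 17 members (11.3%), against 8.75% of all genes. The groups of mice did not overlap in 15 members that were higher in GFAP-IL6 mice (8.43% of all genes were) and 11 that were lower (5.93% of all genes). The median standard error of a member's log2 fold change was 0.24, against 0.14 over all genes tested. With 3 mice per genotype, differences well above this error also went uncalled, such as -0.58 ± 0.17 (SE) in Zbtb11os1. A member without a call can therefore still differ.

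**Figure D2:**
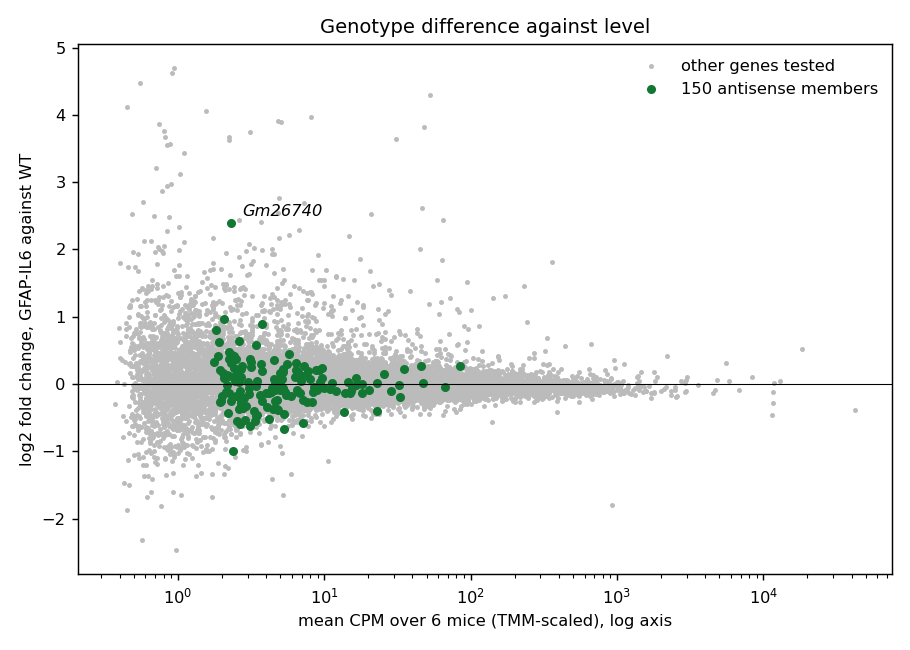
Log2 fold change of GFAP-IL6 against WT mice (vertical axis) against the mean level in CPM over the 6 mice (horizontal log axis), with the 150 members in green over all other genes tested in grey. The members lie between 1.76 and 85.1 CPM and centre on 0, with Gm26740 apart at 2.395.

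Gm26740 was that member. It is a spliced RNA of 4 exons at chr10:22187013-22302835, minus strand, that lies inside Raet1e and over H60b on the other strand without sharing exonic bases with Raet1e, the partner assigned to it. Both partners belong to families of ligands that stressed or infected cells show to NKG2D, a receptor of natural killer cells. Its level was 0.572, 0.942 and 0.787 CPM in the WT mice and 2.32, 3.93 and 5.32 CPM in the GFAP-IL6 mice. The genotypes did not overlap, and the spread was wide among the GFAP-IL6 mice. A log2 fold change of 2.395 ± 0.37 (SE) resulted, past the threshold (edgeR adjusted p = 0.00156). On the other strand, Raet1e had 0 counts in all mice and H60b had 5, 8 and 3 counts in WT and 2, 2 and 6 counts in GFAP-IL6 mice. Also looked up was Raet1d, with 2, 0 and 0 counts in WT and 0, 1 and 2 in GFAP-IL6 mice. E030030I06Rik, looked up as well, had 2, 1 and 0 counts in WT and 8, 6 and 9 in GFAP-IL6 mice. Neither was tested.

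Gm26740 rests on few counts, 11, 17 and 6 in the WT mouse sums and 22, 82 and 205 in the GFAP-IL6 ones, with 0 in 2 WT libraries. It ranked 101 among the antisense genes, but its counts in GFAP-IL6 mice carried it there, since by the mean of the WT mice alone it ranked 250 and by that of the GFAP-IL6 mice 86. With the 150 antisense genes most abundant in WT mice as members, an alternative chosen after seeing the data, 0 were called by edgeR, and 141 of the 150 genes were the same. The filter on low counts removed the gene in both set A comparisons, and in set B only its GFAP-IL6 libraries carried it past that filter. With 2 ng in set B it had 4, 4 and 0 counts in WT and 6, 19 and 52 in GFAP-IL6 mice. With 1 ng in set B it had 4, 9 and 3 counts in WT and 10, 30 and 76 in GFAP-IL6 mice. The log2 fold changes there were 2.54 (2 ng) and 2.15 (1 ng). These libraries are part of the mouse sums, so the 2 values are not separate support. Microglial markers moved with genotype too: 4 of 5 were called higher, and their summed level was 321 to 357 CPM in WT and 486 to 654 CPM in GFAP-IL6 mice. Astrocyte markers summed to 576 to 625 CPM and 712 to 898 CPM, with 1 of 5 called, and endothelial markers to 45.5 to 51.2 CPM and 54.3 to 78.1 CPM, with 1 of 4 called. The part of these cells in the result was not tested, and in bulk tissue more cells of a type and more RNA per cell cannot be told apart.

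The promoter of Gm26740 is shown because this member changed, beside that of Zbtb11os1, which lies head to head with a coding gene, both as RefSeq windows on GRCm38.p6 from 250 bases before to 50 bases after the start, with CG dinucleotides in capitals.
Gm26740, chr10:22302789-22303088, minus strand: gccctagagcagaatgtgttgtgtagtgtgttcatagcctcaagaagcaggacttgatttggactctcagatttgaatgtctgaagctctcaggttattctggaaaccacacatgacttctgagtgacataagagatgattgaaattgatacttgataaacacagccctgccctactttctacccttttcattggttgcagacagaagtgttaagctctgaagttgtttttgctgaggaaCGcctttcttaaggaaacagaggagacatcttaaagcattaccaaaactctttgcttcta
Zbtb11os1, chr16:55974568-55974867, minus strand: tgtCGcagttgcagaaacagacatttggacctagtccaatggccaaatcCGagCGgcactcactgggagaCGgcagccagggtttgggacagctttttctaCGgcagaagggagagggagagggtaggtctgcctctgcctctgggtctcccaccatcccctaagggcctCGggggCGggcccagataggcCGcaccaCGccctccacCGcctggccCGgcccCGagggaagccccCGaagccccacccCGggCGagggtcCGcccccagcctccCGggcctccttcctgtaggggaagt
The Gm26740 window held 1 CG and the Zbtb11os1 window 17. Over 100 windows of the 89 members that matched the table the median was 17.5 CG, against 7 over all 32851 windows, and it was 28 in tail to tail members, 18 in head to head members and 11 in those inside a partner. The palindromic motif TTCNNNGAA, the core of the site that STAT proteins bind, was in 11 of the 100 member windows and 8.3% of all windows. None of the 3 windows of Gm26740 held it, which says only that these letters are not in these windows.

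The members next in p were not called. They were picked by p between these same mice, which favours groups that do not overlap. Gm29508, inside Fam181a, had 2.55, 2.83 and 2.49 CPM in WT and 4.43, 4.75 and 5.32 CPM in GFAP-IL6 mice. These groups lay apart with little spread, and the log2 fold change of 0.89 ± 0.22 (SE) just missed the threshold (edgeR adjusted p = 0.0659). It passed without a filter on low counts (adjusted p = 0.0333) and with limma-voom on all 24 libraries (adjusted p = 0.0189), and did not pass with DESeq2 (adjusted p = 0.13) or with edgeR in any of the 4 library sets alone (adjusted p from 0.346 to 0.919). Fam181a, on the other strand, averaged 3.15 ± 0.57 CPM in WT (SD, n = 3) and 3.81 ± 1.21 CPM in GFAP-IL6 mice.

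Sp3os starts head to head with Sp3, which encodes a transcription factor of the Sp family. It was at 25.4, 24.3 and 28.7 CPM in WT and 20.4, 19.4 and 19.2 CPM in GFAP-IL6 mice. All GFAP-IL6 mice were below all WT mice, with a log2 fold change of -0.40 ± 0.11 (SE, edgeR adjusted p = 0.109) that passed only with limma-voom (adjusted p = 0.0462) among the alternatives run. Sp3 was at 26.3 ± 3.85 CPM in WT (SD, n = 3) and 25.4 ± 2.55 CPM in GFAP-IL6 mice.

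Kcnd3os, antisense to the potassium channel gene Kcnd3, had 3.75, 3.27 and 2.49 CPM in WT and 1.69, 1.44 and 1.74 CPM in GFAP-IL6 mice. Zbtb11os1 had 8.27, 8.09 and 9.32 CPM in WT and 5.91, 5.08 and 6.04 CPM in GFAP-IL6 mice. Abhd11os, which runs into the mitochondrial hydrolase gene Abhd11, had 5.62, 6.37 and 7.48 CPM in WT and 5.06, 4.08 and 3.27 CPM in GFAP-IL6 mice. In these 3 members every GFAP-IL6 mouse was below every WT mouse. Their log2 fold changes were -0.99 ± 0.28, -0.58 ± 0.17 and -0.68 ± 0.22 (SE), with edgeR adjusted p of 0.129, 0.141 and 0.228. The partners Kcnd3, Zbtb11 and Abhd11 had log2 fold changes of 0.21, -0.03 and -0.02 (adjusted p from 0.751 to 0.99). 1110035H17Rik, head to head with Fam98c, had 1.25, 1.83 and 1.0499 CPM in WT and 2.64, 2.88 and 2.83 CPM in GFAP-IL6 mice. These mice lay apart too, with a log2 fold change of 0.97 ± 0.31 (SE, edgeR adjusted p = 0.206). By the mean of the WT mice alone 1110035H17Rik ranked 187 among the antisense genes, and by that of the GFAP-IL6 mice 107. For Kcnd3os these ranks were 100 and 163. Each would fall outside the 150 by the genotype where it was lower, so the choice of members favoured these 2 differences.

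**Figure D3:**
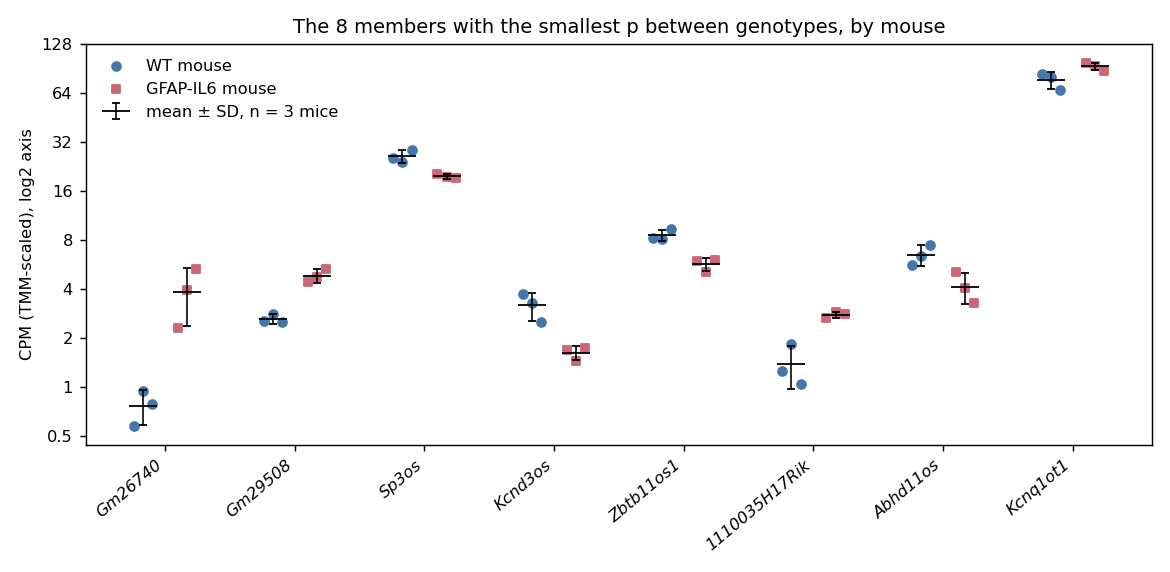
Level of the 8 members with the smallest p between genotypes, in CPM after TMM scaling on a log2 axis, with 1 point per mouse and bars for mean ± SD (n = 3 mice per genotype). In each of the 8 the WT and GFAP-IL6 mice do not overlap, which their choice by p between these same mice favours. Of all genes tested, 8.43% lay apart and higher in GFAP-IL6 mice and 5.93% apart and lower. Only Gm26740 passed the adjusted threshold.

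The share of all counts that fell on the members was 0.1243%, 0.1187% and 0.1115% in the WT mice and 0.1193%, 0.1215% and 0.1228% in the GFAP-IL6 mice. The means of 0.118% ± 0.0064 and 0.121% ± 0.00178 (SD, n = 3) differed by 0.00306 percentage points (exact permutation test, two-sided, p = 0.6, where 3 against 3 mice cannot go below 0.1). WT mouse 3, the one with high choroid plexus markers and also the fewest counts, had the lowest share. Without it the difference was -0.000258 percentage points, and the part of either trait was not tested.

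Single members varied more between mice than this share. The highest mouse exceeded the lowest by more than 2-fold in 40 members. WT mouse 3 was the lowest in 44 members and GFAP-IL6 mouse 1 in 37, and the part of count depth in this was not tested. After Gm26740 the widest range was that of Phtf1os, at 2.55, 3.38 and 2.76 CPM in WT and 0.633, 2.49 and 4.15 CPM in GFAP-IL6 mice, a member picked out here after its values were seen. Its groups overlapped, and 1 GFAP-IL6 mouse was lowest while another was highest of all.

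Levels were then compared with those of the partners. Of 129 members with an overlapping partner, the partner was protein-coding for 123 and had 0 counts for 7. By CPM the antisense gene was above its partner in 41 pairs, and per kb of length in 55. The median member stood at 28.5% of its partner by CPM and 70.2% per kb. Gm13205 had 32.7 CPM against 3.66 for Casz1, and 58.2 against 0.433 CPM per kb. Gm13629, picked out after its values were seen, had 18.01 CPM and 15.7 CPM per kb, against 0.638 and 0.064 for Scn9a, a sodium channel gene of sensory neurons. At the other end, Toporsos had 28.4 CPM and 26.9 CPM per kb, against 538 and 817 for Ndufb6, a subunit of respiratory complex I. Snhg9 had 14.5 CPM and 79.2 CPM per kb, against 534 and 463 for Rps2, a ribosomal protein gene.

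Changes of antisense and partner showed little relation across pairs. Of 105 pairs in which both genes were tested, 56 (53.3%) had log2 fold changes of the same sign, with Pearson's r = 0.04 and Spearman's rho = 0.04 across pairs, which are not independent replicates and share the 6 mice. None of the 104 different partners in these pairs was called between genotypes, against 1.8% of all genes tested. The ratio of antisense to partner was tested with limma over 212 pairs, 105 of them members, and 0 were called (0% of all pairs), with 18 members (17.1%) and 29 pairs in all (13.7%) at an unadjusted p under 0.05. The smallest adjusted p was 0.0982, for Kcnd3os against Kcnd3 at a log2 ratio change of -0.98 ± 0.27 (SE) and for C920021L13Rik, named for this p alone, against BC028528 at -0.93 ± 0.26 (SE). Leaving out WT mouse 3 brought both past the threshold, and leaving out WT mouse 1 brought 2900093K20Rik past it. Kcnd3os was within the 150 by its WT level and ranked 163 by that of the GFAP-IL6 mice, so the choice of members favoured its change.

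**Figure D4:**
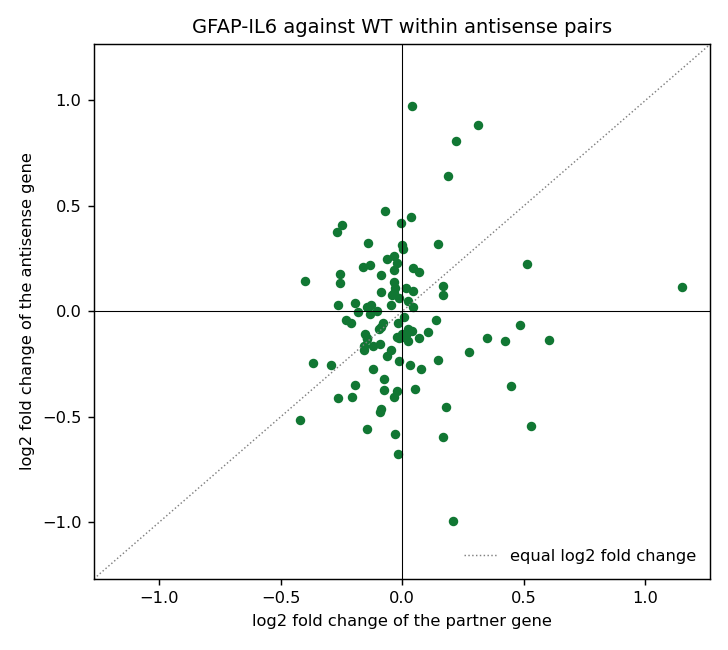
Log2 fold change of GFAP-IL6 against WT for the antisense gene (vertical axis) and for its partner on the other strand (horizontal axis), 1 point for each of the 105 pairs in which both were tested. The points spread about 0 on both axes, with 56 in the quadrants of equal sign, and do not follow the dotted line of equal change.

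The cDNA amount in the tagmentation reaction was compared between libraries of the same 6 mice. In 3'Pool-seq samples are pooled before tagmentation, and the sample labels do not name the pools. If the mice of an amount and set shared a reaction, SE and p measure spread over mice and not between reactions. This holds for amounts, for sets and for their combination. With genotype in the model, 9 members (6.0%) were called between 2 ng and 1 ng by edgeR, against 12.8% of 13389 genes. Of these, 3 were higher with 2 ng (5.65% of all genes were) and 6 lower (7.15% of all genes). That fit does not use the pairing by mouse, and the SE and p of single members below are from such fits unless a block is named. Since the same mice gave both amounts, the mouse was also fitted as a block. Then 29 members (19.3%) were called against 33.3% of all genes, with all of the 9 among them. Leaving out GFAP-IL6 mouse 2 or 3 left 4 or 5 members called.

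Toporsos was at 20.9, 21.2 and 25.7 CPM with 2 ng and 34.8, 33.2 and 35.6 CPM with 1 ng in the WT mice, and at 24.5, 20.6 and 23.7 CPM against 31.9, 28.6 and 31.6 CPM in the GFAP-IL6 mice. It was lower with 2 ng in 6 of 6 mice. Its log2 difference was -0.53 ± 0.08 (SE, edgeR adjusted p = 0.00011). Rab26os, a single-exon gene within Rab26, a GTPase of secretory vesicles, was at 10.9 to 13.9 CPM with 2 ng and 16.2 to 23.4 CPM with 1 ng. Snhg9 was at 11.1 ± 1.73 CPM with 2 ng and 17.1 ± 2.43 CPM with 1 ng (SD, n = 6 mice). Both were lower with 2 ng in 6 of 6 mice, by -0.70 ± 0.12 and -0.64 ± 0.12 on the log2 scale (SE).

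Tmem147os went the other way. Its level was 9.32 ± 2.82 CPM with 2 ng and 4.95 ± 1.57 CPM with 1 ng (SD, n = 6 mice), higher in 6 of 6 mice, with a log2 difference of 0.92 ± 0.20 (SE). RP24-140D11.1 and 9330179D12Rik were the other members higher with 2 ng, in 6 and 5 of 6 mice, with log2 differences of 1.08 ± 0.31 and 0.53 ± 0.16 (SE). The remaining members lower with 2 ng were 9330020H09Rik, Gm10138 and Gm2415, with log2 differences of -0.56, -0.57 and -0.59. Only Toporsos, Rab26os and Snhg9 were called within set B, while Tmem147os had a log2 difference of 0.91 there (edgeR adjusted p = 0.0663). A difference between the amounts that itself depended on the set was found by edgeR for 1 of 147 members, 1110002L01Rik, against 11.4% of 12758 genes.

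Between sets A and B, 4 members (2.67%) were called with genotype in the model, against 7.47% of 13581 genes, and with the mouse as a block 11 (7.33%), against 23.3% of all genes. Gt(ROSA)26Sor was at 55.0, 50.9 and 50.01 CPM in set A and 45.6, 40.3 and 40.9 CPM in set B in the WT mice, and at 55.7, 56.1 and 49.3 CPM against 45.2, 40.2 and 41.5 CPM in the GFAP-IL6 mice. It was higher in set A in 6 of 6 mice, by 0.32 ± 0.07 (log2, SE, edgeR adjusted p = 0.005), although it was the most even member between mice. 3110056K07Rik, tail to tail with the proteasome gene Psma3, had 9.43 ± 1.66 CPM in set A and 6.39 ± 1.26 CPM in set B (SD, n = 6 mice). 9330179D12Rik, head to head with the cyclin gene Ccnd2, had 8.58 ± 1.24 and 5.84 ± 1.07 CPM. Gm7467 had 8.29 ± 1.04 and 11.5 ± 1.09 CPM, lower in set A in 6 of 6 mice. None of the 4 was called between sets with 1 ng alone, where edgeR called 0 members and 94 genes in all. Gt(ROSA)26Sor alone was called without GFAP-IL6 mouse 2 or 3, and 2 members were called without any 1 of the WT mice.

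**Figure D5:**
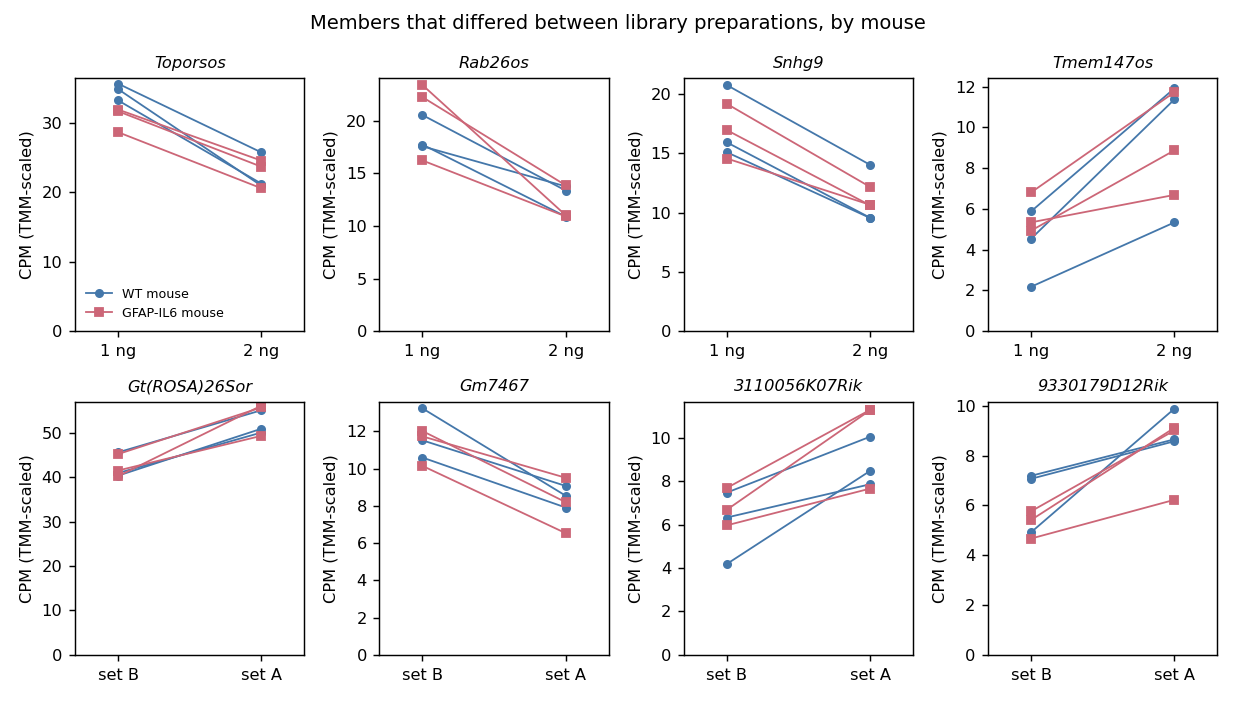
Level in CPM after TMM scaling, on linear axes from 0, of the 4 members with the smallest p between 1 ng and 2 ng of cDNA (upper row) and between sets B and A (lower row), with 1 line per mouse. All 6 lines slope the same way in each panel, downward with 2 ng for Toporsos, Rab26os and Snhg9 and upward for Tmem147os.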

How the data were processed

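RNA from the frontal cortex of 3 WT and 3 GFAP-IL6 mice was sequenced as 24 3'Pool-seq libraries. The authors trimmed poly(A) tails, aligned reads to mm10 with STAR 2.4, and deposited raw counts of uniquely aligned reads for 33000 GENCODE vM6 genes, made with featureCounts, whose strand setting is not given in the sources used here. The table also gives each gene's length and type, and a human build also listed in the submitters' processing notes was not used here.

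Groups came from the labels, and the 4 libraries of a mouse were summed. Genes that passed filterByExpr were tested with TMM scaling and edgeR's quasi-likelihood test (edgeR 4.0.16, R 4.3.3), two-sided, with Benjamini-Hochberg adjusted p under 0.05 over all genes tested. All 150 members passed the filter. SE is the log2 fold change divided by the square root of F. Amounts and sets were compared on libraries summed per mouse, with genotype in the model or the mouse as a block. Log2 ratios of antisense to partner used a pseudocount of 0.5 CPM and limma 3.58.1, for pairs with at least 10 counts per mouse on average. Partners, arrangement and ends were read from GENCODE vM21 (GRCm38) by gene identifier, copies with minimap2 2.31-r1302 (at least 100 of the last 300 bases at 97% identity), and promoters from RefSeq (GRCm38.p6). Genes named in the text follow a rule: the 12 members with most counts, the 8 with the smallest p between genotypes, the 4 with the smallest p between amounts and between sets among those called, ranks 148 to 153, partners, and listed genes. Other genes, among them 9330020H09Rik, Gm10138, Gm2415, 2900093K20Rik, A630072M18Rik, 1110002L01Rik and those with a near-identical copy or a later coding type, were named after their values were seen.

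The members and lists were chosen with earlier results of these data known. Same-numbered WT and GFAP-IL6 mice did not deviate together (r = -0.049, -0.032 and -0.034), so the numbers do not pair the genotypes, while amounts and sets were made from the same mice. On simulated counts, the genotype test recovered 81% of 2-fold and 96% of 4-fold changes over 14457 genes, with 5.35% of its calls false. The changed genes were drawn from all genes and not from the members, whose median SE was larger (0.24 against 0.14). Recovery among the members was therefore not measured. Alternatives were DESeq2 1.42.0, limma-voom, other scalings, filters, thresholds, pseudocounts and single library sets, and each mouse left out. A search for A-runs after the annotated ends was not done, as no genome sequence was used here.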

Additional observations from a re-analysis of the deposited data

Results flagged for a closer look

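For 1110002L01Rik the difference between 2 ng and 1 ng of cDNA depended on the library set, in a comparison added after seeing the data. Its level was 7.503 ± 1.998 CPM (SD, n = 6 mice) with 2 ng and 3.95 ± 1.47 CPM with 1 ng in set A, and 4.15 ± 1.72 and 5.20 ± 1.33 CPM in set B. The log2 difference between amounts was 0.78 in set A and -0.29 in set B, and the test of one less the other gave 1.09 ± 0.34 (SE, edgeR with the mouse as a block, adjusted p = 0.0187), the only call among 147 members tested, where 11.4% of 12758 genes were called. The last 300 bases of this gene lie wholly under exons of the other strand and a near-identical copy exists in another gene, and the part of either was not tested. Dixon's test at the 95% level was run on the 6 mouse differences of each of the 13 amount or set calls among the members, and none passed; 1110002L01Rik and the groups of 3 mice were not tested.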

How the results depend on the processing

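The member count between genotypes stayed at 1 in every fit that left out a mouse, with DESeq2, with other size factors and with the replicate block, in which the pairing by number gave 1 member and 215 genes. It was 2 without a filter on low counts, 2 with limma-voom on all libraries (Gm29508 and Sp3os) and 2 at adjusted p under 0.1. It was 0 with at least 10 counts in every mouse, 0 in the 2 ng set A alone, 0 in the 1 ng set A alone and 0 for the antisense genes most abundant in WT mice. DEG counts were 0 under these and under limma-voom, because Gm26740 was not among the genes tested or listed. Genes called in all were 462 without a filter, 125 to 140 in single library sets, and 146 to 321 with a mouse left out. Between amounts the count was 29 with the mouse block, 3 in set B alone, and 4 to 10 with a mouse left out. Between sets it was 11 with the mouse block, 0 with 1 ng alone, 8 with 2 ng alone, and 1 to 3 with a mouse left out. Called ratios to the partner ranged from 0 to 2 with a mouse left out.

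Uncalled differences of 17 named members changed sign 46 times, all with a size of 0.24 or less at first, and the cause was not tested. In the 2 ng set B alone the log2 fold changes were 0.0458 for RP24-68G17.4, -0.0428 for Gt(ROSA)26Sor, 0.14 for 4933431E20Rik, 0.21 for Toporsos, -0.16 for A830036E02Rik, 0.0105 for 2810455O05Rik, 0.0867 for Dlx6os1, 0.0381 for Gm7467, 0.12 for Gm16536, -0.28 for Tmem147os and 0.0705 for Emx2os. In the 1 ng set A alone they were 0.15 for 4933431E20Rik, -0.0145 for 2810001G20Rik, 0.0376 for 2810455O05Rik, -0.0873 for Rab26os, -0.039 for Snhg9, 0.0003 for 9330179D12Rik, 0.11 for Emx2os, -0.42 for A830092H15Rik and -0.37 for Gm13601. In the 2 ng set A alone they were -0.10 for 2810001G20Rik, -0.17 for Rab26os and -0.29 for A830092H15Rik. The replicate block gave -0.0007 for 2810001G20Rik and -0.012 for Snhg9, and limma-voom -0.0006 for Gt(ROSA)26Sor. With each mouse left out the ranges were -0.11 to 0.0108 for RP24-68G17.4, -0.0152 to 0.0729 for Gt(ROSA)26Sor, -0.0872 to 0.0447 for 4933431E20Rik, -0.0485 to 0.0683 for 2810001G20Rik, -0.0819 to 0.17 for Snhg9, -0.18 to 0.0726 for Dlx6os1, -0.14 to 0.0125 for Gm7467, -0.22 to 0.10 for Gm16536, -0.13 to 0.32 for Tmem147os and -0.10 to 0.13 for A830092H15Rik. Of the other single values, 453 between genotypes kept their side and 3 passed the threshold, and 25 between amounts and 22 between sets lost it. Depth limits the members near the lower edge, which hold the fewest counts.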
